A study of Homo sapiens with 6 samples.

Results

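The 34 genes described here make and regulate sterols and fatty acids, and were chosen by symbol. They cover the enzymes from acetoacetyl-CoA to cholesterol (18 genes), the regulators and carriers of sterols (8 genes), and the enzymes of fatty acid synthesis and desaturation (8 genes). All 34 were found among the 61806 genes of the deposited table, and all 34 were among the 19485 genes tested. Transcripts of NB4, an established human line of acute promyelocytic leukaemia, were read from poly(A) RNA. CD69, a C-type lectin of activated leukocytes, was overexpressed by lentivirus in 3 of the libraries, and the other 3 carried the vector control, which the labels call wild type. No drug was given, all cells grew in RPMI medium with fetal bovine serum, and the labels put all 6 libraries in batch 1. The labels do not tell whether replicates were transduced separately, so each group could be 1 transduced culture. The p-values then measure the spread between these libraries, which may be technical.

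Cholesterol is built from acetyl-CoA through mevalonate, isoprenoids, squalene and lanosterol. The genes of this route are switched on by SREBP transcription factors, encoded by SREBF1 and SREBF2. SCAP carries SREBP to the Golgi for activation when the membrane is poor in sterol, and INSIG proteins hold the complex back when sterol is plentiful. SREBF1 products favour fatty acid genes and the SREBF2 product favours sterol genes. Growing leukaemia cells need both lipids for membranes.

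The promoters of these genes are where SREBP works, so the stretch upstream of the start is shown for 6 genes. SREBF2 was the only member whose window held the longer sterol element, and INSIG1 and SCD are members that rose and held the shorter one. HMGCS1, NSDHL and MSMO1 are the enzymes with the largest rises among those whose window held CCAAT. The 250 bases before each start were read from RefSeq (GRCh38.p14), where 30 of the 34 genes matched, and a gene with several starts was counted if any window held the letters. Letters searched on both strands were TCACNCCAC and its shorter form CACNCCAC (sterol regulatory element), CCAAT (bound by NF-Y), GGGCGG (bound by Sp1) and CACGTG (an E-box). The shorter sterol element lies inside the longer one, so their counts overlap. Capitals mark the sterol element and CCAAT on either strand.
SREBF2 (chr22:41832855-41833104, plus strand): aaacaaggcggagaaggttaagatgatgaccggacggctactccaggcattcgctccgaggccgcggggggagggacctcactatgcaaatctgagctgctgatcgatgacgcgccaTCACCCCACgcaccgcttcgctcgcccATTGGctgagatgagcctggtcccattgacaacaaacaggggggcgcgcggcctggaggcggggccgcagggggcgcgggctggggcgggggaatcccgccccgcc
INSIG1 (chr7:155297628-155297877, plus strand): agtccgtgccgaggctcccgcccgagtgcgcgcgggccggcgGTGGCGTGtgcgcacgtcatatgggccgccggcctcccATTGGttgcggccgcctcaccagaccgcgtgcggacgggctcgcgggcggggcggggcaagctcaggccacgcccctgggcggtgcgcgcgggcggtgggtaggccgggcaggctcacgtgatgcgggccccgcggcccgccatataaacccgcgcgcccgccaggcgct
SCD (chr10:100346983-100347232, plus strand): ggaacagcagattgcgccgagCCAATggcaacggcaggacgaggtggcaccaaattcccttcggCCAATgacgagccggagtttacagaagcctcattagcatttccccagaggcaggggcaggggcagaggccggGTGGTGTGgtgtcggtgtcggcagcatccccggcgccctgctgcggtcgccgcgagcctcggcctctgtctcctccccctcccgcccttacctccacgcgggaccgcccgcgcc
HMGCS1 (chr5:43313413-43313662, minus strand): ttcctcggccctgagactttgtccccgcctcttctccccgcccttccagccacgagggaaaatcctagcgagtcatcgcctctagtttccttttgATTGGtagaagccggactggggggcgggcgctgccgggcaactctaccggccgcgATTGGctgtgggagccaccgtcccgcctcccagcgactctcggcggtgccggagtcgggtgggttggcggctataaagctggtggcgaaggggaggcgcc
MSMO1 (chr4:165327419-165327668, plus strand): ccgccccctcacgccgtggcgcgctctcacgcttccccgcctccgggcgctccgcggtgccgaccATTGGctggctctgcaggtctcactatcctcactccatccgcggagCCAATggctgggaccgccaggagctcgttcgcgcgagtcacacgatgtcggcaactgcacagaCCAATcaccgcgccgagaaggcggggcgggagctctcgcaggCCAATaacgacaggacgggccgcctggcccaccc
NSDHL (chrX:152830813-152831062, plus strand): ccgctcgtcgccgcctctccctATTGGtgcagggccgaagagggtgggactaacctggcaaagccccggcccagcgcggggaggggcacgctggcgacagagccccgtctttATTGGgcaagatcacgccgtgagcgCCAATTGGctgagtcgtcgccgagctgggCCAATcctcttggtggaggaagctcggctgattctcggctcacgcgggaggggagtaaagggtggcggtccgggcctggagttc

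The longer element TCACNCCAC was present in the window of 1 of 30 members, against 1.16% of the 12422 tested genes with a listed window. The shorter element CACNCCAC was present in 6 of 30 members (INSIG1, IDI1, SCD, SC5D, ACACA and SREBF2), against 6.69% of tested genes. It began 208 bases before the start in INSIG1, 114 in SCD and 132 in SREBF2. CCAAT was present in 20 of 30 members (66.7%), against 40.5% of tested genes, and in 11 of the 16 that rose and 9 of the 14 that did not pass the test. MSMO1 held 4 copies of CCAAT and NSDHL held 5, as did MVK, which did not pass the test. The start of HMGCS1 shown held 2 copies and its other listed start none. GGGCGG was present in 29 of 30 members (96.7%), against 70.9% of tested genes, and CACGTG in 3 of 30 (10.0%), against 10.9%. These matches describe letters only.

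Total counts were 51543550 to 56239830 in the overexpressing libraries and 55716218 to 57463020 in the controls. CD69 itself was 97.7 ± 1.75 CPM in the overexpressing libraries and 77.6 ± 6.14 CPM in the controls (CPM, counts scaled to library size with TMM factors, the scale of all levels here unless said otherwise; SD, n = 3 each), a log2 fold change of 0.33 (SE 0.07; quasi-likelihood adjusted p = 0.0153). The call of CD69 was lost without overexpressing replicate 2 (quasi-likelihood adjusted p = 0.0618) and in the test against a fold of 1.2 (adjusted p = 0.260). Of the 8 myeloid markers checked, all 8 were detected, with a summed level of 2119 to 2402 CPM in the overexpressing libraries and 1251 to 1496 CPM in the controls, and 3 of the 8 rose. The 10 B cell markers summed to 27.0, 102 and 99.0 CPM in overexpressing replicates 1, 2 and 3, and to 17.9 to 23.5 CPM in the controls, and 4 of the 10 rose. T cell markers summed to 0.785 to 2.47 CPM in the overexpressing libraries and 1.98 to 2.10 CPM in the controls, with CD3E and CD3G at 0 counts in all 6. Of the 6 T cell markers, 1 rose and 1 fell. Erythroid markers (5 genes, none past the test) reached at most 0.319 CPM in the overexpressing libraries and 1.36 CPM in the controls, with ALAS2 at 0 counts in all 6. Epithelial and fibroblast markers (6 genes) summed to 106, 37.0 and 25.7 CPM in overexpressing replicates 1, 2 and 3. In the controls they summed to 102 to 115 CPM, and 1 of the 6 fell. The part of these markers in the results below was not tested. In bulk RNA, a changed number of cells of a type and changed RNA per cell cannot be told apart.

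Of the 34 genes, 18 rose in the overexpressing cells, none fell, and 16 did not pass the test (quasi-likelihood test of edgeR; called at a p under 0.05 after Benjamini-Hochberg adjustment over every tested gene). Of the 19485 genes in the test, 14.2% were called higher and 9.94% lower, together 24.1%, so 52.9% of the members were called higher beside 14.2% of all genes. Among the 10994 tested genes of at least 5 mean CPM, a level reached by 32 of the 34 members, 17.9% were higher and 15.2% lower. At an unadjusted p under 0.05, 20 members were higher and 1 (ACAT2) was lower, and DESeq2 and limma-voom also called none lower. The median log2 fold change was 0.44 over the 34 genes and 0.01 over all tested genes. All 3 overexpressing libraries lay above all 3 controls for 22 members, beside 23.0% of all tested genes, and below all 3 for 2 members (ACAT2 and SCAP), beside 19.3%. The groups thus did not overlap for 24 members, beside 42.3% of all tested genes. By arm, 10 of 18 sterol enzymes, 5 of 8 regulators and carriers and 3 of 8 fatty acid genes rose, with median log2 fold changes of 0.50, 0.44 and 0.20.

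**Figure D1:**
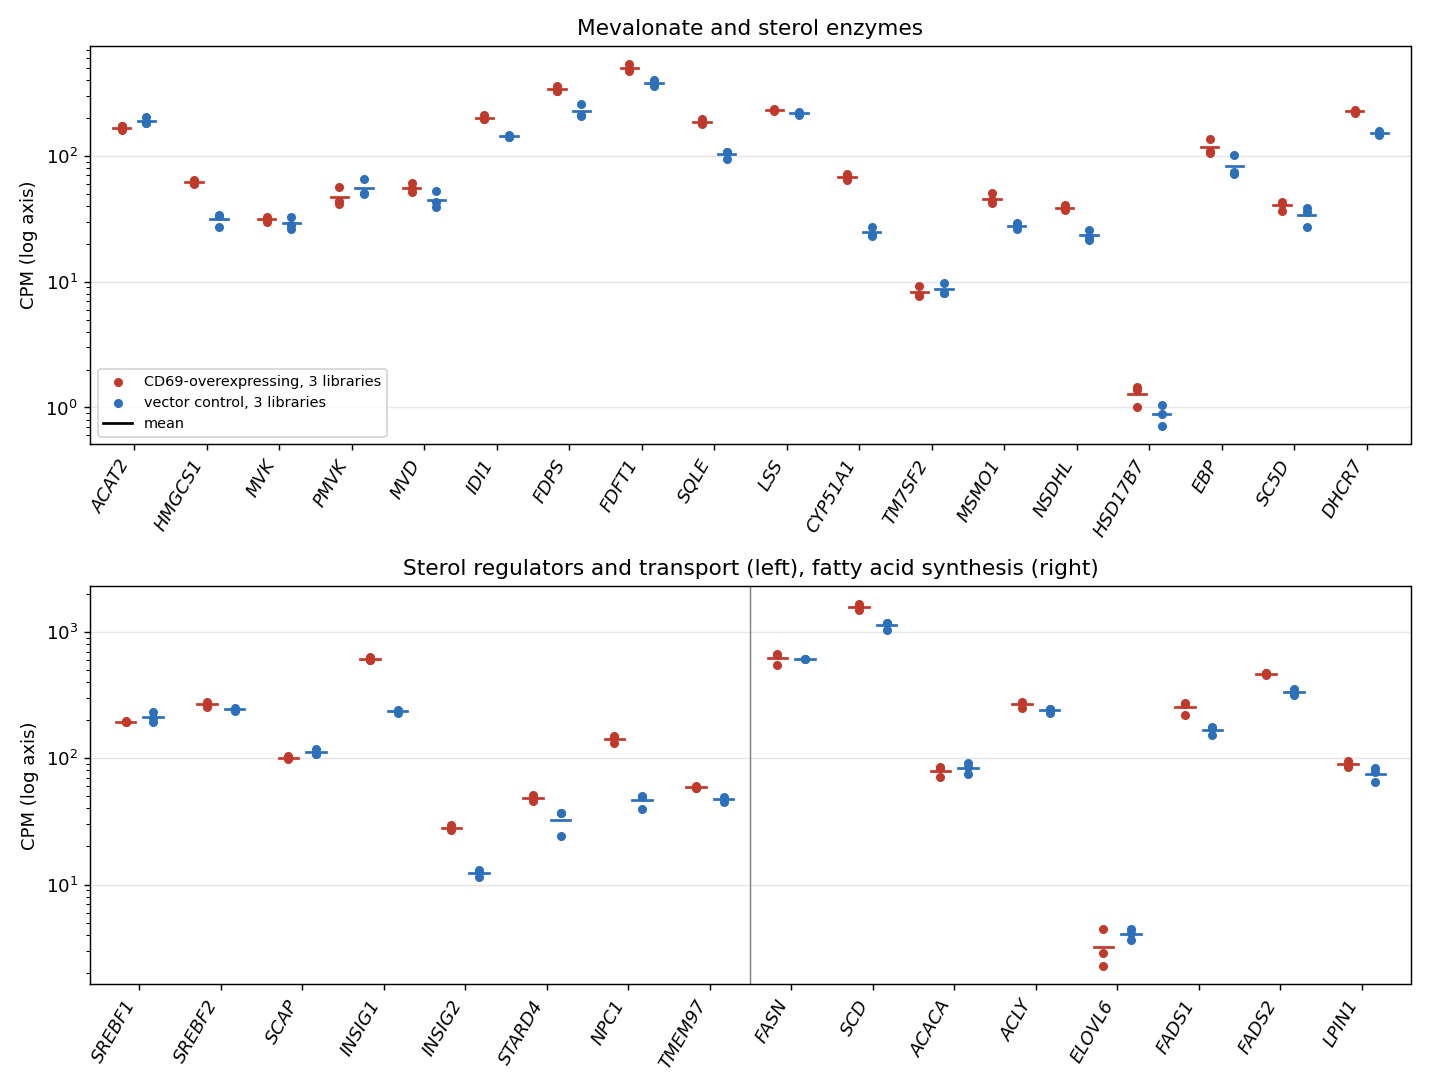
Each point is 1 library's CPM on a log axis, with CD69-overexpressing libraries to the left of the vector controls for each gene, and the bar is the mean of 3. The groups stand fully apart for NPC1, INSIG1, INSIG2 and CYP51A1, while FASN, ACACA, PMVK and TM7SF2 overlap.

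Early in the mevalonate route, HMGCS1 rose and the kinases that follow did not pass the test. HMGCS1, which joins acetyl-CoA to acetoacetyl-CoA (ENSG00000112972; GRCh38 chromosome 5, 43289395 to 43313512, minus strand), had 60.2, 64.8 and 61.4 CPM in overexpressing replicates 1 to 3, against 34.2, 33.4 and 27.0 CPM in control replicates 1 to 3. Every overexpressing library was above every control, and the log2 fold change was 0.98 (SE 0.10; quasi-likelihood adjusted p = 0.000497). ACAT2, which makes the acetoacetyl-CoA, had 159.9, 172 and 171 CPM in the overexpressing libraries, against 182, 184 and 202 CPM in the controls. ACAT2 was thus lower in every overexpressing library, but its log2 difference of -0.17 (SE 0.07) missed the threshold (quasi-likelihood adjusted p = 0.107). On the opposite strand, 33.9% of its exon length is shared with SOD2-OT1 (log2 difference 0.15, SE 0.39), 26.5% with SOD2, whose value is not used here, and 9.24% with TCP1, a chaperonin subunit (log2 fold change -0.67, SE 0.06). Whether counting used the strand is not stated. Mevalonate kinase MVK and phosphomevalonate kinase PMVK had log2 differences of 0.11 (95% interval -0.12 to 0.33) and -0.22 (-0.58 to 0.13), with overlapping groups. The decarboxylase MVD had 55.5, 51.9 and 60.5 CPM in the overexpressing libraries, against 39.0, 42.7 and 52.8 CPM in the controls. For MVD, 1 control lay above the lowest overexpressing library, and the log2 difference was 0.32 (interval 0.04 to 0.60; quasi-likelihood adjusted p = 0.0978, 0.0108 without control replicate 3, and 0.0237 with the replicate block).

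Each of the 4 steps from isopentenyl diphosphate to squalene epoxide rose. IDI1, the isomerase that makes dimethylallyl diphosphate, had 197, 195 and 211 CPM in the overexpressing libraries, against 142, 145 and 141 CPM in the controls. FDPS, which builds farnesyl diphosphate, had 329, 329 and 363 CPM in the overexpressing libraries, against 208, 213 and 257 CPM in the controls. The log2 fold changes were 0.50 (SE 0.06) for IDI1 and 0.59 (SE 0.09) for FDPS, with no overlap between groups. FDFT1, the squalene synthase that commits carbon to sterols, rose by 0.40 (SE 0.07), and was called in all alternatives except the test against a fold of 1.2 (adjusted p = 0.0789). SQLE, which oxidises squalene and is a rate-limiting enzyme, averaged 187 ± 8.68 CPM in the overexpressing cells and 103 ± 7.93 CPM in the controls (SD, n = 3 each; log2 fold change 0.86, SE 0.08). The processed copies of IDI1 and FDPS held at most 22 counts in any library, and at most 0.166% of the parent gene's count. FDPS shares 18.6% of its exon length with RUSC1-AS1 on the opposite strand, an antisense gene that also rose (log2 fold change 0.58, SE 0.10).

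After lanosterol, CYP51A1, which removes a methyl group from the sterol nucleus, rose most of the enzymes. It had 64.1, 71.8 and 69.0 CPM in the overexpressing libraries, against 23.6, 27.2 and 23.2 CPM in the controls. The lowest overexpressing library was more than 2 times the highest control, and the log2 fold change was 1.47 (SE 0.09; quasi-likelihood adjusted p = 5.32e-05). CYP51A1 (chromosome 7, 92112151 to 92134803, minus strand) shares 79.4% of its exon length with AC000120.2, a coding gene of the same strand, which held 0 counts in all 6 libraries. A further 2.76% is shared with AC000120.3, also of the same strand. That gene held 0, 42 and 0 counts in overexpressing replicates 1 to 3 and 11, 22 and 130 in control replicates 1 to 3. These counts do not tell how reads in shared bases were counted, so the level of CYP51A1 is less certain. MSMO1, the sterol methyl oxidase, had 41.9, 44.7 and 50.4 CPM in the overexpressing libraries, against 29.4, 28.5 and 26.0 CPM in the controls (log2 fold change 0.71, SE 0.09). Its partner in demethylation, NSDHL, had 40.4, 37.2 and 39.0 CPM in the overexpressing libraries, against 21.6, 22.6 and 25.7 CPM in the controls (0.74, SE 0.09). In both genes every overexpressing library was above every control. DHCR7, which makes cholesterol from its last precursor in one branch, averaged 226 ± 6.95 CPM in the overexpressing cells and 152 ± 5.63 CPM in the controls (SD, n = 3 each; log2 fold change 0.57, SE 0.06). EBP, the sterol isomerase, had 106, 110.1 and 137 CPM in the overexpressing libraries, against 72.0, 74.6 and 102 CPM in the controls. The groups of EBP were barely apart, with a log2 fold change of 0.51 (SE 0.15; quasi-likelihood adjusted p = 0.0490), and its call was lost in 9 of 16 alternatives, including leaving out control replicate 1 (0.161), control replicate 2 (0.181) and overexpressing replicate 1, 2 or 3 (0.0602, 0.106 and 0.144).

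Of the remaining sterol enzymes, lanosterol synthase LSS differed little, with 232 ± 4.42 CPM in the overexpressing cells and 218 ± 6.72 CPM in the controls (SD, n = 3 each). Although its groups did not overlap, its log2 difference of 0.09 had an interval of -0.04 to 0.22. The desaturase SC5D had a log2 difference of 0.26 (interval -0.05 to 0.58) and the reductase TM7SF2 one of -0.08 (-0.42 to 0.27). HSD17B7, a sterol ketone reductase, held only 57, 77 and 74 counts in the overexpressing libraries and 50, 59 and 40 counts in the controls. These few counts left an interval of -0.13 to 1.196 around its log2 difference of 0.53. A pseudogene copy, HSD17B7P2, held up to 40.0% as many counts as HSD17B7 in a library, so the value of this gene is uncertain.

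**Figure D2:**
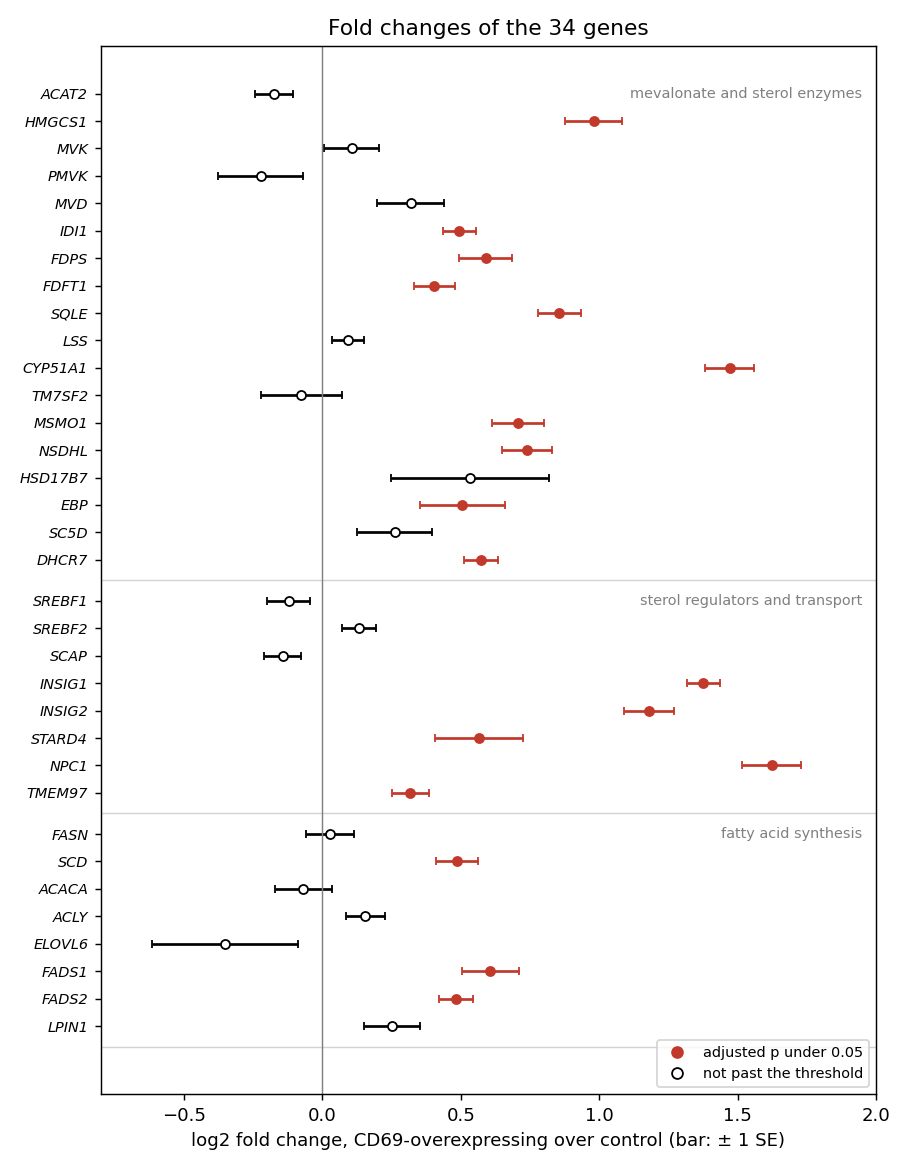
Points are log2 fold changes of CD69-overexpressing over control cells with bars of 1 SE, genes running down the page in pathway order within each arm. The 18 filled points passed the test, all to the right of 0, and no gene passed it to the left.

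The transcripts of the SREBP factors and of SCAP did not pass the test, while both INSIG genes rose. SREBF1 had 192, 196 and 193 CPM in the overexpressing libraries, against 206, 194 and 232 CPM in the controls, with overlapping groups (log2 difference -0.12, interval -0.30 to 0.06). SREBF2 had 269, 279 and 254 CPM in the overexpressing libraries, against 249.7, 238 and 243 CPM in the controls. SREBF2 was higher in every overexpressing library by a small amount (log2 difference 0.13, interval -0.01 to 0.28; quasi-likelihood adjusted p = 0.161). SCAP was lower in every overexpressing library, with 101 ± 2.68 CPM, against 111 ± 6.27 CPM in the controls (SD, n = 3 each; log2 difference -0.14, interval -0.30 to 0.01; quasi-likelihood adjusted p = 0.159). INSIG1 (ENSG00000186480; chromosome 7, 155297776 to 155310235, plus strand) is itself a sterol-repressed SREBP target and a brake on the pathway. It had 596, 604 and 635 CPM in the overexpressing libraries, against 239, 238 and 229 CPM in the controls (log2 fold change 1.38, SE 0.06). INSIG2, the second brake, had 29.4, 27.5 and 27.1 CPM in the overexpressing libraries, against 12.5, 13.0 and 11.5 CPM in the controls (log2 fold change 1.18, SE 0.09; quasi-likelihood adjusted p = 0.000139). For both INSIG genes, the lowest overexpressing library was more than 2 times the highest control.

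Among the sterol carriers, NPC1, the exporter of cholesterol from the lysosome, had the largest rise of the 34 genes. NPC1 (ENSG00000141458; chromosome 18, 23506184 to 23586898, minus strand) had 147, 151 and 131 CPM in the overexpressing libraries, against 50.1, 49.3 and 39.9 CPM in the controls. The lowest overexpressing library was more than 2 times the highest control, and the log2 fold change was 1.62 (SE 0.11; quasi-likelihood adjusted p = 6.68e-05). NPC1 shares 5.98% of its exon length with RMC1 on the opposite strand, which rose by 0.28 (SE 0.08). TMEM97, an endoplasmic reticulum protein that binds NPC1, had 57.6, 60.1 and 58.5 CPM in the overexpressing libraries, against 47.4, 44.6 and 49.3 CPM in the controls (log2 fold change 0.32, SE 0.07; quasi-likelihood adjusted p = 0.0125). The call of TMEM97 was lost without control replicate 1 (0.0517), control replicate 2 (0.0724) or overexpressing replicate 2 (0.0809), and against a fold of 1.2 (0.293). STARD4, a soluble sterol carrier, had 45.9, 50.8 and 48.2 CPM in the overexpressing libraries, against 36.7, 37.1 and 24.2 CPM in the controls. STARD4 was higher in every overexpressing library (log2 fold change 0.56, SE 0.16; quasi-likelihood adjusted p = 0.0375), with control replicate 3 well below the other controls. Its call was lost without control replicate 1 (0.0523) and without overexpressing replicate 1, 2 or 3 (0.0551, 0.111 and 0.0895), with no filter on low counts (0.0794) and against a fold of 1.2 (0.118).

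In the fatty acid arm, the 3 desaturases rose and the enzymes that build the saturated chain did not pass the test. SCD, which makes monounsaturated fatty acids (chromosome 10, 100347124 to 100364834, plus strand), had 1618, 1654 and 1490.4 CPM in the overexpressing libraries, against 1184, 1176 and 1039 CPM in the controls. FADS1, a desaturase of polyunsaturated fatty acids, had 271, 275 and 219.6 CPM in the overexpressing libraries, against 176, 173 and 154 CPM in the controls. FADS2, which acts earlier in the same pathway, had 469, 473 and 453 CPM in the overexpressing libraries, against 329, 319 and 351 CPM in the controls. All 3 genes had groups that did not overlap, with log2 fold changes of 0.49 (SE 0.07) for SCD, 0.61 (SE 0.10) for FADS1 and 0.48 (SE 0.06) for FADS2. FADS1 and FADS2 lie side by side on chromosome 11 and share 490 exon bases on opposite strands, so they are not independent observations of a locus.

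Fatty acid synthase, FASN, had 652, 674 and 543 CPM in the overexpressing libraries, against 612, 615 and 606 CPM in the controls. Its overexpressing libraries lay on both sides of the controls, and its log2 difference of 0.03 had an interval of -0.17 to 0.23. ACACA, which makes the malonyl-CoA that FASN uses, had a log2 difference of -0.07 (interval -0.31 to 0.17), with overlapping groups. ACLY, which supplies cytosolic acetyl-CoA from citrate, averaged 267 ± 15.7 CPM in the overexpressing cells and 240.3 ± 11.8 CPM in the controls (SD, n = 3 each). LPIN1, a phosphatidate phosphatase, averaged 90.0 ± 5.04 CPM in the overexpressing cells and 75.6 ± 9.51 CPM in the controls. For both, every overexpressing library was above every control, yet the log2 differences of 0.15 (interval -0.01 to 0.32) and 0.25 (0.02 to 0.49) missed the adjusted threshold (quasi-likelihood adjusted p = 0.157 and 0.113). ELOVL6, an elongase of saturated chains, had 4.41, 2.89 and 2.25 CPM in the overexpressing libraries, against 4.11, 3.67 and 4.43 CPM in the controls. ELOVL6 varied more among the overexpressing libraries than between groups, with an interval of -0.97 to 0.26. No test of the difference between desaturases and other fatty acid genes, or between arms, was made.

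The median log2 level relative to the control mean was 0.31, 0.40 and 0.41 over the 34 genes in overexpressing replicates 1, 2 and 3, and 0.01, -0.01 and -0.01 in control replicates 1, 2 and 3. In each of the overexpressing libraries, 28 of the 34 genes were above the control mean. Overexpressing replicate 1, the library of its group nearest to the controls across all tested genes (Pearson's r with the controls of 0.957 to 0.958, against 0.942 to 0.945 for replicates 2 and 3), had the lowest of these medians. The 28 were not the same genes in each library: PMVK and TM7SF2 were below the control mean in replicates 1 and 2 and above it in replicate 3, and ELOVL6 stood at 0.12, -0.49 and -0.85 in replicates 1, 2 and 3. The median over the sterol enzymes was 0.34, 0.43 and 0.57 in overexpressing replicates 1, 2 and 3. Within the sterol enzymes, 16 of 18 were higher in the mean of overexpressing replicates 2 and 3 than in replicate 1, and within the fatty acid genes 1 of 8. Overexpressing replicate 3 was the lowest of its group for all 8 fatty acid genes. Among the sterol enzymes, it was the highest for MVK, PMVK, MVD, IDI1, FDPS, FDFT1, SQLE, TM7SF2, MSMO1, HSD17B7 and EBP, and not for the others. Control replicate 3 was also the lowest of its group for FASN, SCD, ACACA, ACLY, FADS1 and LPIN1, but the highest for ELOVL6 and FADS2. It was the highest control for MVK, PMVK, MVD, FDPS, FDFT1, TM7SF2 and EBP. For IDI1, SQLE, MSMO1 and HSD17B7 it was the lowest control. Without overexpressing replicate 1, 9 sterol enzymes, 4 regulators and carriers and 3 fatty acid genes were called higher and none lower.

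**Figure D3:**
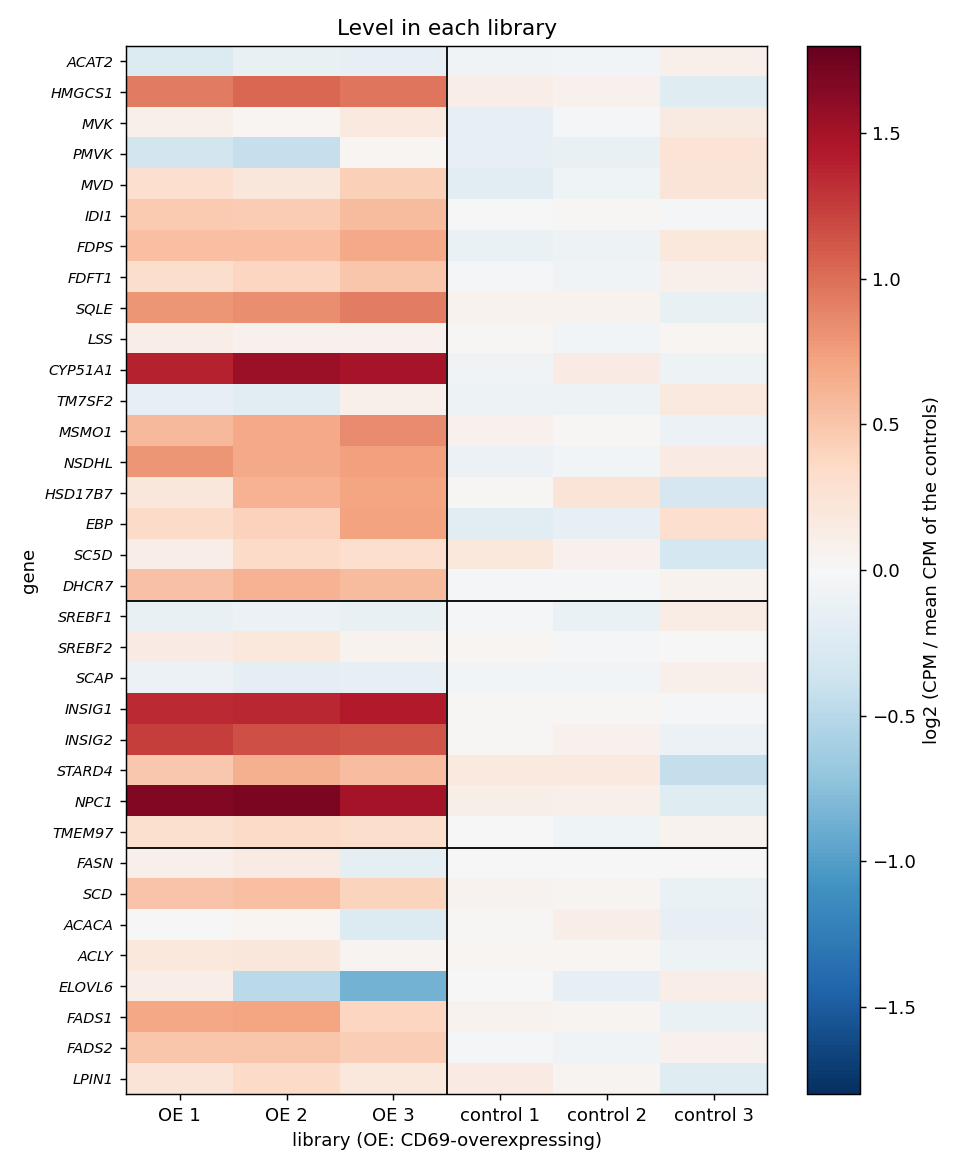
Each cell is the log2 ratio of a library's CPM to the mean CPM of the 3 controls, with overexpressing libraries in the left columns and controls in the right ones. NPC1, CYP51A1, INSIG1, INSIG2 and HMGCS1 are the darkest red rows in all 3 overexpressing columns, and ELOVL6 is blue in overexpressing replicates 2 and 3.

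To compare genes with each other, counts were divided by exon length and rescaled to the same total in each library (TPM). SCD had the highest level, 906 TPM in the overexpressing cells and 666 TPM in the controls. In the overexpressing cells it was followed by INSIG1 (512 TPM), FDFT1 (295 TPM), FDPS (280 TPM) and FASN (204 TPM). In the controls it was followed by FDFT1 (229 TPM), FASN (205 ± 9.30 TPM), INSIG1 (203 ± 12.1 TPM) and FDPS (191 ± 15.3 TPM), of which the last 3 did not differ beyond their spread (SD, n = 3). INSIG2 stood at 21.7 TPM in the overexpressing cells and 9.86 TPM in the controls, so INSIG1 was the more abundant INSIG transcript in both. SREBF2 was above SREBF1, with 108 against 73.8 TPM in the overexpressing cells and 101 against 82.4 TPM in the controls. The lowest levels were those of HSD17B7, with 0.815 TPM in the overexpressing cells and 0.584 TPM in the controls, and of ELOVL6, with 1.34 TPM in the overexpressing cells and 1.75 TPM in the controls. Summed over an arm, the sterol enzymes held 2285 to 2492 CPM in the overexpressing libraries and 1723 to 1869.6 CPM in the controls. The regulators and carriers held 1441 to 1466 CPM in the overexpressing libraries and 921 to 950.1 CPM in the controls, and the fatty acid genes 3114 to 3537 CPM in the overexpressing libraries and 2521 to 2720.4 CPM in the controls.

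Some chromosomes stood apart, with a median log2 fold change of 0.49 over 326 coding genes on X and of 0.40 on chromosome 20, and 5 of the 34 genes lay where the neighbours' median was more than 0.3 from 0. Neighbours were coding genes of at least 5 mean CPM that start within 5 Mb. NSDHL and EBP are both on X, where neighbours had median log2 fold changes of 0.46 (58 genes) and 0.49 (51 genes). INSIG2 had neighbours at 0.41 (17 genes), IDI1 at 0.36 (14 genes) and ACAT2 at -0.35 (24 genes). EBP differed from its neighbours' median by 0.01 and IDI1 by 0.14, whereas NSDHL exceeded it by 0.28 and INSIG2 by 0.77. For NPC1, CYP51A1, INSIG1, HMGCS1 and SQLE, the neighbours' medians were 0.07, 0.22, -0.09, -0.02 and 0.04. Of the 18 genes that rose, 15 exceeded their neighbours' median by more than 0.3. Gene dosage was not measured, and its part in these values was not tested.

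**Figure D4:**
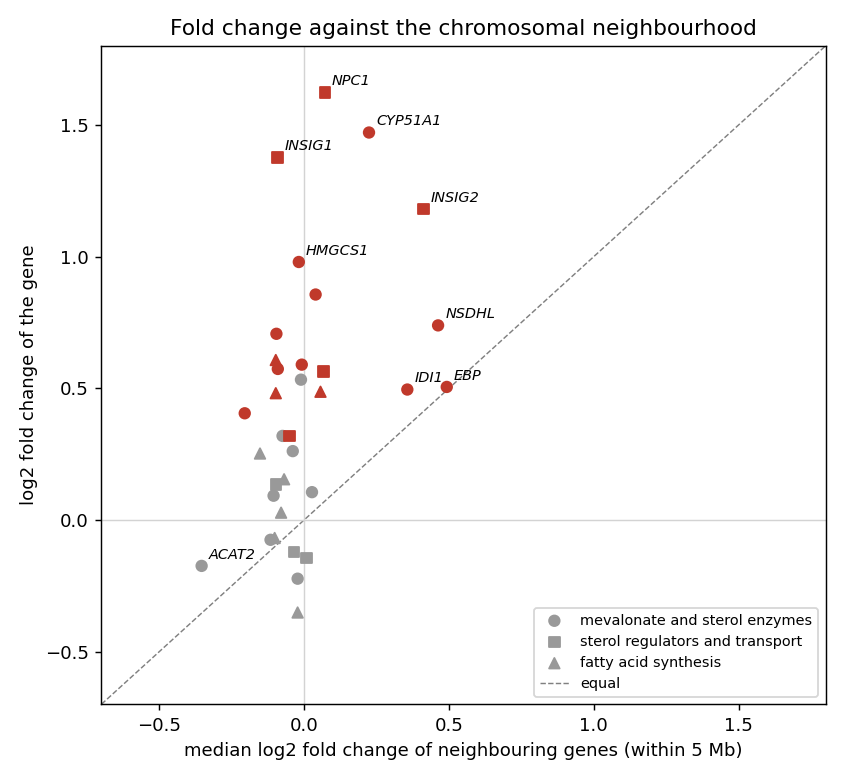
Each point is 1 of the 34 genes, with its log2 fold change (CD69-overexpressing over control) on the vertical axis and the median of coding genes within 5 Mb on the horizontal axis; red points passed the test and shapes give the arm. EBP lies on the line of equality, with NSDHL and IDI1 the next nearest of the red points, and NPC1, CYP51A1 and INSIG1 stand far above it.

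Other genes of the same metabolism were taken from 8 lists, to be read beside the 14.2% of all tested genes that were higher and the 9.94% that were lower. Among tested genes of at least 5 mean CPM, these shares were 17.9% and 15.2%. Shares near these, such as 1 of 9 higher for liver X receptors and efflux or 2 of 14 higher for fatty acid oxidation, are no result about a list. Of 14 genes of the isoprenoid branches of the mevalonate pathway, 7 fell and 1 (COQ2, of coenzyme Q synthesis, at 0.39, SE 0.10) rose, with a median log2 fold change of -0.29. NUS1, a subunit of the dolichol-forming enzyme, had 96.6 ± 1.23 CPM in the overexpressing cells and 154 ± 11.6 CPM in the controls (SD, n = 3 each; log2 fold change -0.68, SE 0.07), in a stretch of chromosome 6 whose neighbours had a median of -0.59. RABGGTB, a subunit of the Rab prenyltransferase, fell by 0.49 (SE 0.06). Of 12 genes of SREBP processing and sterol-regulated degradation, 4 rose and 2 fell. ERLIN1, which helps degrade sterol-regulated proteins, had 521 ± 14.4 CPM in the overexpressing cells and 324 ± 17.9 CPM in the controls (log2 fold change 0.68, SE 0.06). MBTPS2, the protease that frees SREBP from the membrane, rose by 0.76 (SE 0.12) and is on X, where its neighbours had a median of 0.47. RNF145, a sterol-responsive ubiquitin ligase, fell by 0.54 (SE 0.06).

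Of 15 genes of sterol esters and intracellular sterol transport, 6 rose and 1 fell. The lipid transfer protein gene OSBPL5 had 111 ± 7.94 CPM in the overexpressing cells and 50.6 ± 2.33 CPM in the controls (SD, n = 3 each; log2 fold change 1.13, SE 0.08), and OSBPL2, on chromosome 20 with neighbours at 0.39, rose by 0.77 (SE 0.09). SOAT1, which esterifies cholesterol for storage, had 58.1 ± 2.44 CPM in the overexpressing cells and 83.5 ± 6.23 CPM in the controls (log2 fold change -0.52, SE 0.08). Of 9 tested genes of liver X receptors and sterol efflux, 1 rose and 2 fell. The lipoprotein receptor SCARB1 had 92.5 ± 1.81 CPM in the overexpressing cells and 174 ± 3.42 CPM in the controls (log2 fold change -0.91, SE 0.06). RXRA, the partner of the liver X receptors, fell by 0.90 (SE 0.06), and the receptor gene NR1H3, at 7.15 CPM in the overexpressing cells and 3.47 CPM in the controls, rose by 1.04 (SE 0.19). The efflux transporter genes ABCA1 and ABCG1 had log2 differences of -0.77 and 0.78 and did not pass the test; both, and COQ2, were singled out after their values were seen.

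Around fatty acids, 7 of 21 tested genes of activation, elongation and desaturation rose and 1 fell, with a list median of -0.03. HSD17B12, a reductase of the elongation cycle, had 16.2 ± 0.471 CPM in the overexpressing cells and 4.98 ± 0.561 CPM in the controls (SD, n = 3 each; log2 fold change 1.70, SE 0.13). MID1IP1, a protein that activates acetyl-CoA carboxylase, had 178 ± 3.12 CPM in the overexpressing cells and 83.1 ± 2.37 CPM in the controls (1.10, SE 0.06), and is on X with neighbours at 0.38. ELOVL5, an elongase of the polyunsaturated chains that FADS1 and FADS2 desaturate, rose by 0.80 (SE 0.07), with neighbours at 0.31. ACSS2, which makes acetyl-CoA from acetate, had 45.0 ± 1.10 CPM in the overexpressing cells and 24.7 ± 1.58 CPM in the controls (0.87, SE 0.08). It led the 8 genes of acetyl-CoA and NADPH supply, of which 2 rose and 1 fell, the others being IDH1 (0.27, SE 0.06) and PGD (-0.30, SE 0.07). Both calls were lost without overexpressing replicate 1 (adjusted p = 0.0614 for IDH1 and 0.0648 for PGD by the quasi-likelihood test) or replicate 2 (0.0685 and 0.0802), and that of IDH1 also without control replicate 2 (0.0659). Of 12 genes of phosphatidate and triglyceride synthesis, 2 rose and 4 fell. CDS2, which makes CDP-diacylglycerol, rose by 1.39 (SE 0.06) among chromosome 20 neighbours at 0.69, AGPAT3 rose by 0.70 (SE 0.07) and AGPAT4 fell by 0.90 (SE 0.12) among chromosome 6 neighbours at -0.35. Of 14 tested genes of fatty acid oxidation, 2 rose and 3 fell, with the carnitine carrier SLC25A20 at 11.7 ± 0.733 CPM in the overexpressing cells and 22.6 ± 1.59 CPM in the controls (-0.95, SE 0.10), ETFA at 0.45 (SE 0.08) and PPARA at 0.73 (SE 0.17) on the log2 scale. The neighbours of ETFA had a median of 0.42, and the call of PPARA was lost without control replicate 2 (quasi-likelihood adjusted p = 0.0692) or overexpressing replicate 2 (0.0652).

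**Figure D5:**
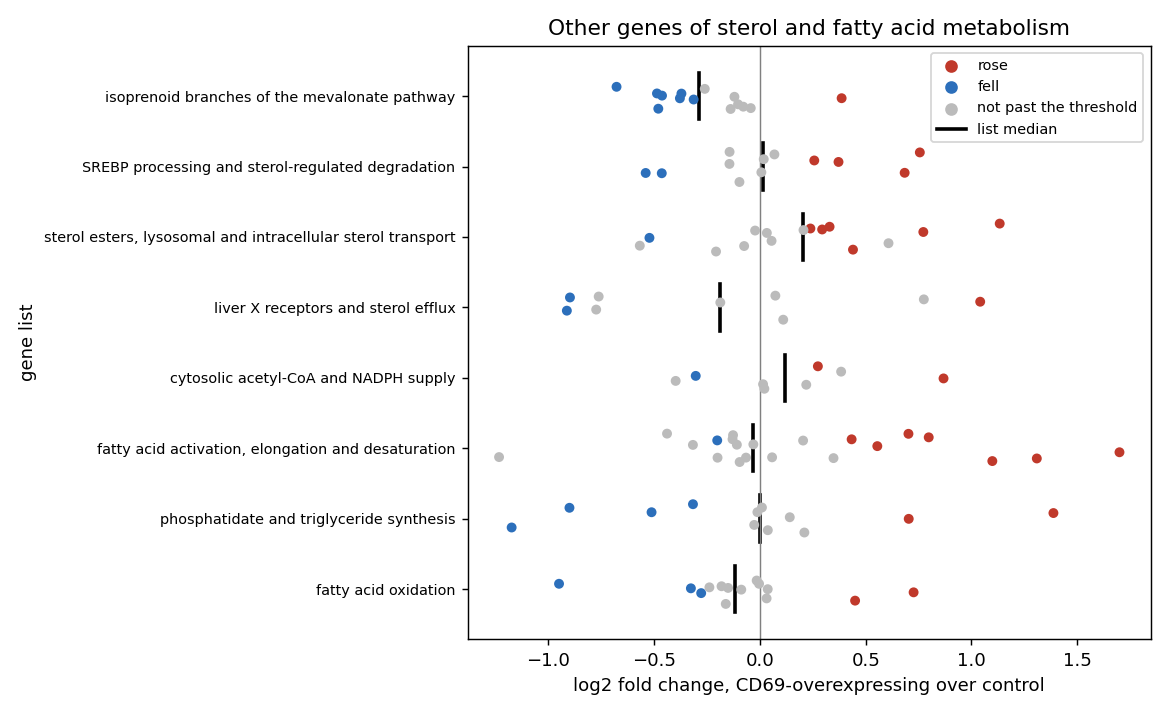
Each point is 1 tested gene of 8 lists of sterol and fatty acid metabolism, placed by its log2 fold change of CD69-overexpressing over control cells, and the black bar is the list's median. The isoprenoid list lies mostly to the left of 0, with a median of -0.29, and HSD17B12 is the rightmost point at 1.70.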

How the data were processed

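Poly(A) RNA was sequenced in 3 CD69-overexpressing and 3 vector control NB4 libraries. The authors deposited estimated counts per gene. The submitters' processing notes name featureCounts (Subread), STAR, fastp and FastQC, and the builds GRCh38 and hg38. Neither their versions nor the annotation release, strand use or counting unit is stated there. The deposited counts were whole numbers, with an excess at 4 in every library (1403 to 1496 genes at 4, against 761 to 824 at 3), so 1 fragment may stand for about 4 counts and the totals may overstate depth. The lowest member count was 40 in a library.

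Genes were kept by filterByExpr, scaled by TMM and tested with edgeR 4.0.16 (glmQLFit and glmQLFTest, two-sided) in R 4.3.3. Adjustment over the 19485 genes followed Benjamini and Hochberg. SE is the fold change divided by the root of F, and intervals use the test's degrees of freedom. Symbols came from a gene name table. Positions and exon lengths came from GENCODE 29 (GRCh38). The members and lists were chosen with earlier results of these data known. All members were named, with up to 3 genes of smallest p per other list. Alternatives were other scaling factors (RLE, upper quartile, none), DESeq2 1.42.0, voom in limma 3.58.1, no filter, at least 50 counts in 3 libraries, a fold of 1.2, the replicate block, counts divided by 4, and each library left out. In simulated counts for 19485 genes, the test called 16% of genes with a log2 change of 0.5, 42% at 1 and 72% at 2. The changed genes, 50 for each size, were drawn at random from all tested genes, of which 10994 had at least 5 mean CPM. Of the 34 members, 32 had that level, so these shares do not tell how often a change in a member would be called. No library repeated another: within a group, chi-square over its degrees of freedom was 2.29 to 14.0 for counts divided by 4. Reads were not used here.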

Additional observations from a re-analysis of the deposited data

How the results depend on the processing

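Across 16 alternatives, 14 of the 18 genes that rose were called in every one; the others were FDFT1, EBP, STARD4 and TMEM97. Against a fold of 1.2, 3 regulators and carriers were called higher, and 1723 of all genes were higher and 874 lower. Whether the replicate numbers pair the libraries was not settled. Same-numbered deviations from the group means correlated at -0.03, 0.05 and 0.07 for replicates 1, 2 and 3. Differently numbered ones correlated at -0.09 to 0.05. Replicates 2 and 3 of each group correlated best with their own number, and replicate 1 of each group did not. The replicate block gave 5 fatty acid genes higher (adding ACLY and LPIN1) and 2 sterol enzymes lower (ACAT2 and PMVK), raised the sterol enzymes called higher to 11 (adding MVD), and called 3194 of all genes higher and 2669 lower. Leaving out 1 library gave 9 to 11 sterol enzymes, 3 to 5 regulators and carriers and 3 fatty acid genes higher, none lower, and 1783 to 2917 of all genes higher and 1137 to 2226 lower. The lowest counts came without overexpressing replicate 2 (1783 and 1137); 1227 and 1287 were lower without control replicates 1 and 2, and regulators and carriers fell to 3 without control replicate 1 or overexpressing replicate 2. Directions turned only for genes near 0: the log2 fold change with 1 library left out ran from -0.0395 to 0.117 for FASN (-0.0140 and -0.0395 without overexpressing replicates 1 and 2), from -0.136 to 0.0145 for ACACA (0.0145 without overexpressing replicate 3) and from -0.169 to 0.0215 for TM7SF2 (0.0215 without control replicate 3). The causes were not tested. No scaling choice turned a direction among the 34 genes.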
